A study of Equus caballus with 45 samples.

Results

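The genes described here are antiviral restriction factors, which are host proteins that block steps of the viral life cycle. They are MX1, MX2, RSAD2, BST2, SAMD9, SAMD9L, ZC3HAV1, EIF2AK2 and IFI6, and they were taken by gene symbol from the 2 count tables of an RNA sequencing study of horse cells. Of the 9 genes, 8 were found by symbol among the 20881 genes of each table, and MX2 was not analysed here. All 8 passed the filter of at least 10 counts in total in every comparison. In chondrocytes SAMD9L did so through 1 library.

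Restriction factors are switched on mostly by interferons, which act through a cell surface receptor and transcription factors that include IRF9. Interferon production in turn starts when nucleic acids are sensed, double-stranded RNA by TLR3 in endosomes and DNA in the cytosol by cGAS, whose product cGAMP activates STING. Mesenchymal stromal cells (MSC) and macrophages are both known to carry these sensors. The products act at different steps: MX1 and MX2 are dynamin-like GTPases that trap incoming viral components, RSAD2 (viperin) is a radical SAM enzyme that makes a chain-terminating nucleotide, and IFI6 sits in the endoplasmic reticulum membrane. BST2 (tetherin) holds budding virions at the cell surface, SAMD9 and its paralog SAMD9L arrest translation, ZC3HAV1 (ZAP) binds CpG-rich viral RNA, and EIF2AK2 (PKR) is a kinase that phosphorylates eIF2α when it meets double-stranded RNA.

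The MSC were bone marrow cells of 3 horses aged 3 to 4 years, listed as donors 92, 99 and PC, with 1 library of each donor left untreated, treated with the TLR3 agonist poly I:C, treated with the STING agonist 2′3′-cGAMP, or labelled CpG. Agonists were given for 2 h at a concentration listed as 10 ng/mL in the sample labels and as 10 μg/mL in the series design, and the washed cells were cultured for 24 h more. Medium conditioned by resting, TLR3-activated or STING-activated MSC (resting MSC-CM, TLR-MSC-CM and STING-MSC-CM) was then put on synoviocytes, chondrocytes and blood-derived macrophages for 24 h, followed by 24 h of culture. These cells were also given IL-1β and TNF-α. The study's abstract places the cytokines in a 2 h step that ended with a wash before the medium. Its methods name no wash between cytokines and medium. The medium was mixed 1:3, and the cytokines are listed at 20 ng/mL, or at 10 ng/mL for macrophages. The media came from MSC donors AG1, ORC and PC, and whether the donors named PC in the 2 tables are the same animal is not stated in the sources used here. Each joint cell type came from 1 horse and had 3 libraries per medium, 1 per MSC donor, plus 1 library with cytokines alone and 1 with no addition. The replicates of a joint cell group are therefore media of different MSC donors on the same cells, and p-values measure the spread between media.

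Total counts ran from 23525704 to 54103873 over 45 libraries (median 31660884), and a floor of 3 counts corresponded to 0.0559 to 0.13 CPM, the counts of a gene scaled to a common library total. Of 4 MSC markers, 4 were detected in the MSC, and 4 also in synoviocytes and chondrocytes with resting MSC-CM. Their sum was 619 to 1548 CPM in untreated MSC and 1638 to 1972 CPM in macrophages with resting MSC-CM. These markers therefore do not set the MSC apart here. The cells labelled chondrocytes held ACAN, SOX9 and COMP at 15.4, 28.5 and 22.1 CPM with resting MSC-CM, against 0.686, 5.99 and 1.08 CPM in synoviocytes, while COL2A1 had 0 to 2 counts and COL9A1 had 0. The summed level of all 7 chondrocyte markers overlapped between the cell types. It was 194, 220 and 595 CPM in the PC, AG1 and ORC libraries of chondrocytes and 188 to 206 CPM in synoviocytes. The summed level of fibroblast-like synoviocyte markers, 5 of 6 of which were found, also overlapped with resting MSC-CM. That sum was 49400 to 72650 CPM in chondrocytes and 69730 to 77880 CPM in synoviocytes. Macrophage libraries with resting MSC-CM also held 6 of 6 lymphocyte markers, at 189 to 223 CPM in sum. Some libraries stood apart from their groups in the genes described here: the TLR3 agonist library of MSC donor 92, the AG1 STING-MSC-CM library of chondrocytes and the ORC TLR-MSC-CM library of synoviocytes. The main results that rest on them are also given without them, and all other values include them.

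The first comparison asked how the genes responded in MSC to each agonist. With the STING agonist all 8 genes were higher than in untreated cells in all 3 donors, by 5.06-fold to 376-fold within a donor. With the TLR3 agonist all 8 were higher in donors 99 and PC, by 3.23-fold to 448-fold, while in donor 92 the ratios ran from 0.532 to 1.60. BST2, MX1, SAMD9L and RSAD2 had the largest log2 fold changes under both agonists and ZC3HAV1 the smallest. In bulk RNA, fewer responding cells and less RNA per cell cannot be told apart.

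Called by the adjusted p of edgeR (quasi-likelihood test, Benjamini-Hochberg over 14872 genes, threshold 0.05), 0 of 8 genes passed for either agonist, and 0% of all genes did. By the study's thresholds, which take an unadjusted p up to 0.05 with a log2 fold change of 2 or more in size, all 8 were higher with the TLR3 agonist (0.719% of all genes) and all 8 with the STING agonist (0.914% of all genes). The median log2 fold change of the 8 genes was 4.58 for the TLR3 agonist and 5.24 for the STING agonist, against 0.02 and 0.01 over all genes. Both comparisons used the same 3 untreated libraries. With DESeq2, run as an alternative, adjusted p passed for 7 of 8 genes with the TLR3 agonist (all but SAMD9, among 48 genes or 0.323% of all) and for 8 of 8 with the STING agonist (93 genes, 0.625%). With the donor as a replicate block, edgeR called 0 of 8 for each agonist, and DESeq2 called 5 of 8 for the TLR3 agonist (BST2, EIF2AK2, MX1, SAMD9L and ZC3HAV1, among 47 genes or 0.316%) and 8 of 8 for the STING agonist (355 genes, 2.39%).

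MX1 was at 6.85, 6.001 and 1.41 CPM in untreated cells of donors 92, 99 and PC. It was at 3.64, 519 and 633 CPM with the TLR3 agonist and at 661, 935 and 532 CPM with the STING agonist. The STING agonist libraries thus did not overlap the untreated ones, while 1 of the TLR3 agonist libraries, that of donor 92, lay within the untreated range. The log2 fold change of MX1 was 6.37 ± 1.54 (SE) for the TLR3 agonist (edgeR, unadjusted p = 0.00287, adjusted p = 1) and 7.24 ± 1.60 for the STING agonist (unadjusted p = 0.00166, adjusted p = 1).

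RSAD2 had few reads at rest, with 43, 22 and 35 counts in untreated cells of donors 92, 99 and PC, or 0.899, 0.617 and 1.124 CPM. With the TLR3 agonist the values were 0.635, 6.65 and 65.6 CPM, and with the STING agonist 21.7, 31.6 and 57.4 CPM. The donors thus spread widely under the TLR3 agonist and spread less under the STING agonist. Log2 fold changes were 4.81 ± 1.40 (SE) for the TLR3 agonist (edgeR, unadjusted p = 0.00797, adjusted p = 1) and 5.41 ± 1.43 for the STING agonist (unadjusted p = 0.00485, adjusted p = 1). CMPK2, a nucleotide kinase that makes the substrate of RSAD2 and whose gene lies next to RSAD2 in the RefSeq annotation, followed the same donors, at 5.50 to 6.55 CPM untreated, 4.64, 96.1 and 150 CPM with the TLR3 agonist and 92.1, 128 and 126 CPM with the STING agonist.

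IFI6 was at 117, 193 and 110 CPM in untreated donors 92, 99 and PC. It was at 98.3, 4297 and 4045 CPM with the TLR3 agonist and at 2345, 7088 and 4555 CPM with the STING agonist. Donor 92 again stayed below its untreated value with the TLR3 agonist, and the lowest STING agonist library lay far above the highest untreated one. Its log2 fold changes were 4.36 ± 1.14 (SE; edgeR, unadjusted p = 0.00459, adjusted p = 1) and 5.08 ± 1.18 (unadjusted p = 0.00228, adjusted p = 1).

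BST2 was near the floor in untreated cells of donor 92, at 0.397 CPM, and stood at 5.10 and 3.76 CPM in donors 99 and PC. With the TLR3 agonist it was at 0.635, 362 and 514 CPM, and with the STING agonist at 120, 940 and 677 CPM. Donor 92 was the lowest of the 3 in every condition, and only its TLR3 agonist library overlapped the untreated group. Log2 fold changes of BST2 were 6.59 ± 1.99 (SE) and 7.57 ± 2.08 for the 2 agonists (edgeR, unadjusted p = 0.00988 and 0.00595, adjusted p = 1 for both).

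**Figure D1:**
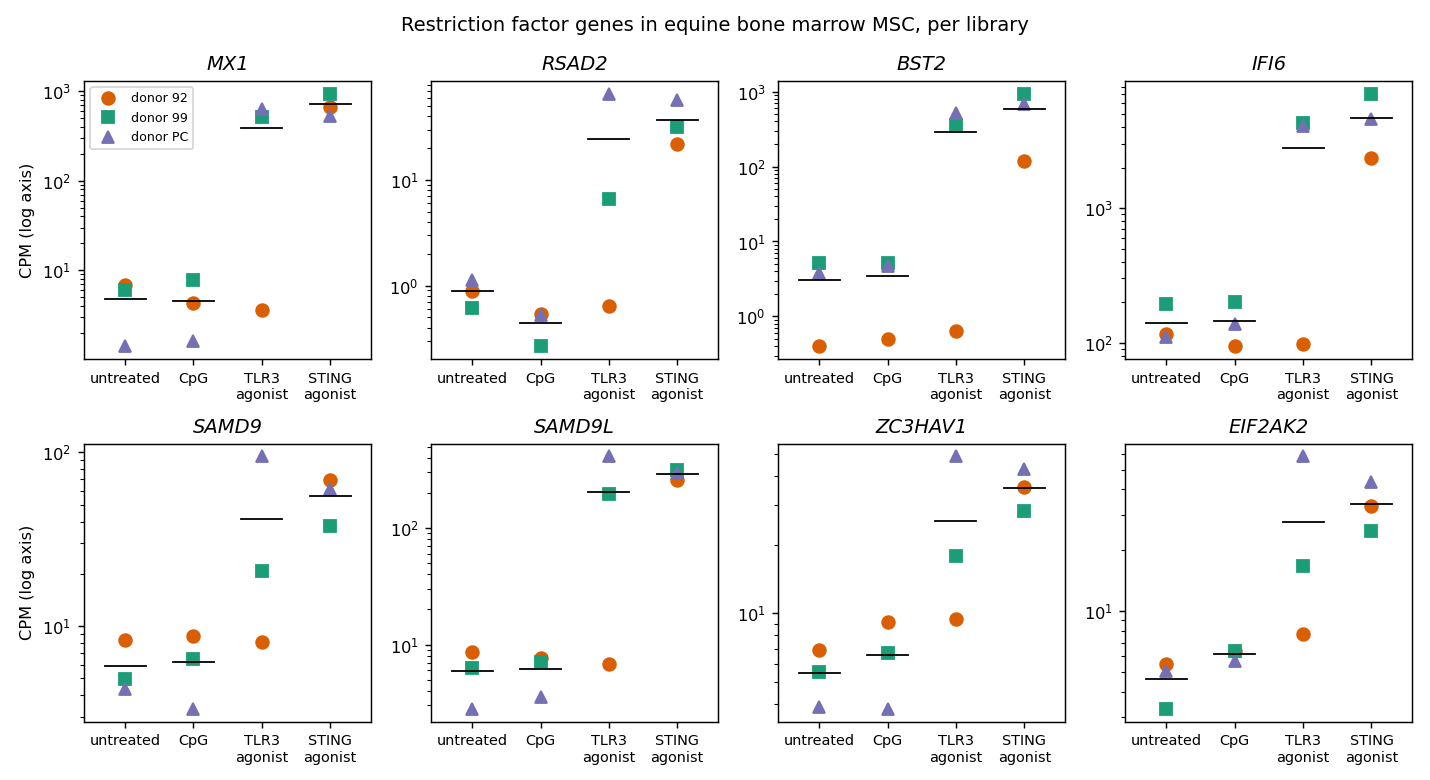
CPM (log axis) of the 8 genes in each of the 12 MSC libraries by condition, with a symbol per donor (92, 99 and PC). The 3 STING agonist libraries lie above the 3 untreated libraries for all 8 genes, whereas the TLR3 agonist library of donor 92 lies beside the untreated libraries, as at 3.64 CPM for MX1.

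The paralogs SAMD9 and SAMD9L, adjacent genes in the RefSeq annotation, differed in size of change. SAMD9 was at 8.38, 4.94 and 4.33 CPM in untreated donors 92, 99 and PC, at 8.09, 20.7 and 94.9 CPM with the TLR3 agonist and at 69.4, 37.5 and 61.5 CPM with the STING agonist. SAMD9L was at 8.57, 6.28 and 2.79 CPM untreated, at 6.82, 195 and 412 CPM with the TLR3 agonist and at 257, 317 and 296 CPM with the STING agonist. Both lay near their untreated level in donor 92 under the TLR3 agonist, and neither overlapped untreated cells under the STING agonist. The log2 fold change of SAMD9 was 2.83 ± 0.81 (SE) for the TLR3 agonist and 3.28 ± 0.82 for the STING agonist, and that of SAMD9L was 5.15 ± 1.20 and 5.65 ± 1.23 (edgeR, unadjusted p from 0.00146 to 0.00729, adjusted p = 1 for all). The difference between the paralogs was not tested, and reads shared by near-identical stretches of the pair could be counted for either or for neither.

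ZC3HAV1 and EIF2AK2, which bind viral RNA directly, had the smallest log2 fold changes and the smallest standard errors. ZC3HAV1 was at 6.94, 5.55 and 3.88 CPM untreated, at 9.47, 17.9 and 49.0 CPM with the TLR3 agonist and at 35.8, 28.1 and 43.1 CPM with the STING agonist. EIF2AK2 was at 5.50, 3.28 and 5.07 CPM untreated, at 7.73, 16.6 and 58.2 CPM with the TLR3 agonist and at 33.3, 24.9 and 43.5 CPM with the STING agonist. These were the 2 genes of the 8 whose TLR3 agonist libraries did not overlap the untreated ones (0.773% of all genes were higher without overlap), and with the STING agonist all 8 genes were (3.22% of all genes). Their log2 fold changes were 2.25 ± 0.56 (SE) and 2.60 ± 0.67 for the TLR3 agonist and 2.73 ± 0.57 and 2.90 ± 0.68 for the STING agonist (edgeR, unadjusted p from 0.00111 to 0.00419, adjusted p = 1). In an exact two-sided permutation test of each gene, p was 0.1 for all 8 with the STING agonist and 0.1 to 0.4 with the TLR3 agonist, where 0.1 is the smallest value that 3 against 3 libraries allow.

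By the study's thresholds 5 of 8 genes were higher with the TLR3 agonist when the TLR3 agonist library of donor PC was left out. The share of all genes in that fit is not reported here. Without the donor 92 TLR3 agonist library, the TLR3 comparison called 3 of the 8 genes by the adjusted p of edgeR (51 genes or 0.345% of all). MX1 rose by 6.92 ± 0.68 on the log2 scale (SE, adjusted p = 0.00709), SAMD9L by 5.69 ± 0.53 (adjusted p = 0.00663) and IFI6 by 4.90 ± 0.51 (adjusted p = 0.0101). The other 5 genes had adjusted p from 0.0923 to 0.16. Because the 3 conditions share one estimate of the spread, the STING comparison then called 3 genes as well (54 genes or 0.366% of all), MX1 (adjusted p = 0.00581), SAMD9L (adjusted p = 0.00565) and IFI6 (adjusted p = 0.00709), an alternative added after the data were seen. Within donors, the ratio of the STING agonist to the TLR3 agonist was above 1 for 8 of 8 genes in donor 92 (3.78 to 190) and in donor 99 (1.5 to 4.76), and for 2 of 8, BST2 and IFI6, in donor PC (0.648 to 1.32). Over all donors, none of the 8 passed the adjusted p of edgeR (0% of all genes) or the study's thresholds (0.182%) between the agonists, with log2 fold changes of 0.30 to 0.98, unadjusted p from 0.387 to 0.65, and 0 of 8 without overlap (0.962% of all genes). Without the donor 92 TLR3 library, 5 of 8 differences were above 0 and their median fell from 0.55 to 0.06.

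**Figure D2:**
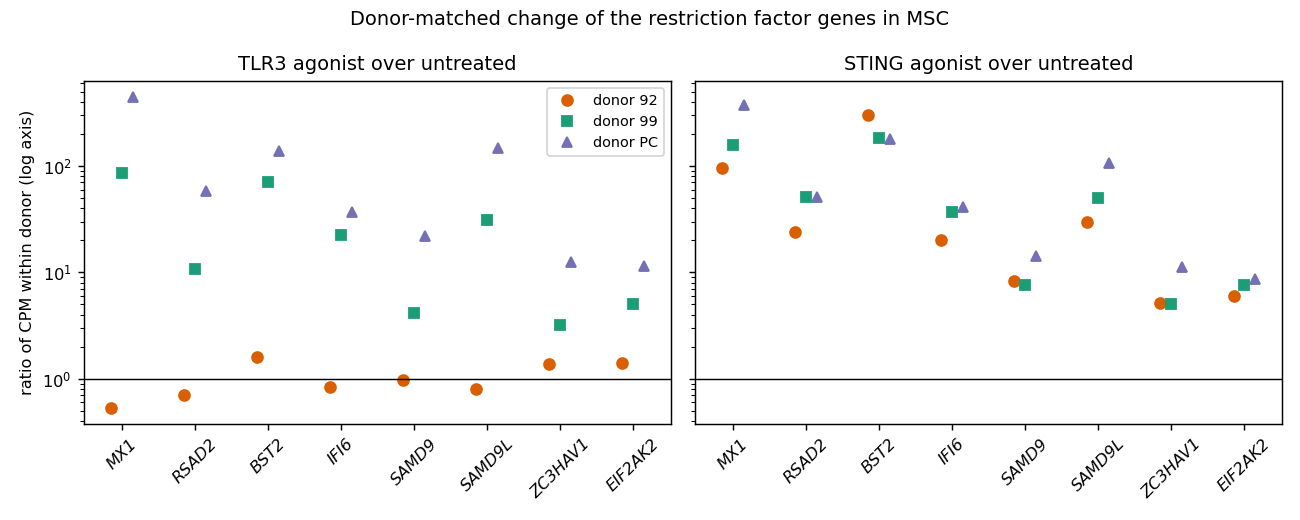
Ratio of CPM within each MSC donor (log axis) for the TLR3 agonist over untreated (left) and the STING agonist over untreated (right), 1 point per donor and gene, with a line at 1. Donor 92 lies between 0.532 and 1.60 on the left and between 5.16 and 303 on the right.

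Other genes of the pathway, from lists of interferon signalling, nucleic acid sensing, partners of the 8 genes and other interferon-induced effectors, were called by the same rules. None passed the adjusted p of edgeR in either comparison. Without the donor 92 TLR3 agonist library, 2 of 13 sensing genes (DHX58 and TLR3), 1 of 9 partners (CMPK2) and 19 of 25 effectors did so with the TLR3 agonist, as did IRF7, IRF9 and USP18. The signalling genes past the study's thresholds with both agonists included the transcription factors IRF7 (log2 fold change 5.36 and 6.88 for the TLR3 and STING agonists) and IRF9 (2.60 and 3.07) and the deconjugating enzyme of ISG15, USP18 (5.03 and 5.65). The listed interferon receptors and JAK kinases did not pass, and IFNB1 had 0 to 2 counts in every MSC group.

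Of the 13 sensing genes, 4 passed with the TLR3 agonist and 5 with the STING agonist. The RNA sensors DDX58 (3.42 and 3.65), DHX58 (6.86 and 7.33), IFIH1 (4.73 and 4.93) and TLR3 (3.47 and 3.87) passed with both, and the DNA sensor CGAS passed with the STING agonist at 2.03. Without the donor 92 TLR3 agonist library, 5 of 13 passed with each agonist, and CGAS was at 2.19 with the TLR3 agonist and 2.01 with the STING agonist. The TLR3 gene was at 1.06 to 3.08 CPM untreated, at 0.938, 17.2 and 42.1 CPM in donors 92, 99 and PC with the TLR3 agonist, and at 19.4, 32.3 and 27.6 CPM with the STING agonist. Donor 92 was thus the lowest in each agonist group. CMPK2 was the 1 of 9 partners past the thresholds, at 3.84 and 4.30, and the ZC3HAV1 cofactors TRIM25 and KHNYN and the EIF2AK2 substrate EIF2S1 were not.

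Of the 25 other effectors, 24 were past the study's thresholds with both agonists, with SAMHD1 as the exception (log2 fold change -0.15 and -0.35). The 24 were IFIH1, which is also a sensing gene, PARP9, PARP12, PARP14, SHFL, IFI35, IFI44, IFI44L, TRIM21, TRIM22, ISG15, ISG20, IFIT2, IFIT3, IFIT5, OAS1, OAS2, OAS3, OASL, LGALS3BP, HERC5, HERC6, DDX60L and XAF1. The median log2 fold change over the 25 was 4.31 for the TLR3 agonist and 4.66 for the STING agonist. Without the donor 92 TLR3 agonist library the order turned, with medians of 4.86 for the TLR3 agonist and 4.63 for the STING agonist. ISG15, the ubiquitin-like modifier, had 6.84 and 7.26, and OAS1, which makes the activator of RNase L, had 3.24 and 3.58. Over the 12 MSC libraries, which share donors and media, 11075 genes were ranked by how closely log2(CPM + 1) followed the mean of the 8 genes. The closest others were PML (Pearson r = 0.997), RTP4 (0.996), HERC5 (0.995), OAS1 (0.995) and PARP12 (0.994). Over the 11 libraries without the TLR3 agonist library of donor 92, those 5 genes had r from 0.994 to 0.997. The 8 genes themselves, each part of that mean, ranged from 0.952 for SAMD9 to 0.994 for SAMD9L over the 12 libraries.

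A macrophage marker moved with the agonists in MSC. The summed level of 10 macrophage markers was 12.5 to 16.5 CPM untreated, 10.6 to 140 CPM with the TLR3 agonist and 52.0 to 327 CPM with the STING agonist. It was carried by CD68, a lysosomal protein, with 374 to 612 counts untreated, 353 to 6913 with the TLR3 agonist and 1524 to 12625 with the STING agonist. CD163 and AIF1 were at 0 in every MSC library, PTPRC had 0 to 12 counts, and the lymphocyte genes CD3D, CD2 and MS4A1 were at 0.

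The libraries labelled CpG, for which the sources used here give no dose, showed no call. By edgeR 0 of 8 genes passed the adjusted p (0% of all genes) and 0 passed the study's thresholds (0.225% of all genes), and no gene had an unadjusted p under 0.05. MX1 was at 4.26, 7.71 and 1.63 CPM in donors 92, 99 and PC, which overlapped untreated cells, and IFI6 at 93.6, 200 and 138 CPM. RSAD2 lay below untreated cells without overlap (1.19% of all genes), with 22, 9 and 19 counts and ratios of 0.431 to 0.603 within donors. Its log2 fold change was -0.97, and the exact two-sided permutation p was 0.1, the smallest possible. EIF2AK2 lay above untreated cells without overlap (1.16% of all genes), at 6.38, 6.35 and 5.65 CPM. TLR9, the sensor of CpG DNA, had 3 to 33 counts per MSC library.

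The second comparison was of levels between the joint cell types, with resting MSC-CM and cytokines in all. Macrophages held the highest mean levels of 7 genes, and for RSAD2 the means of macrophages and chondrocytes differed by less than the spread between libraries. The joint cells came from 1 donor horse by the study's overview, so these differences describe that animal's cells and variation between horses was not measured. Mean levels in the comparisons that follow are CPM over total counts.

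Against synoviocytes, 8 of 8 genes were higher in macrophages by edgeR at an adjusted p under 0.05, where 36.6% of all genes were. BST2 averaged 164 CPM in macrophages and 0.903 CPM in synoviocytes, a difference of 7.48 ± 0.44 on the log2 scale (SE, adjusted p = 8.63e-08), and MX1 averaged 337 and 5.81 CPM, at 5.84 ± 0.50 (adjusted p = 1.63e-06). SAMD9L (5.15 ± 0.33), IFI6 (4.29 ± 0.35) and SAMD9 (4.25 ± 0.16) were next. RSAD2 (1.44 ± 0.29), EIF2AK2 (1.34 ± 0.26) and ZC3HAV1 (1.19 ± 0.14) had the smallest differences, with an adjusted p of at most 0.000996. Of the pathway lists, 12 of 16 signalling genes, 12 of 13 sensing genes and 25 of 25 other effectors were higher in macrophages by the same test. The partners of the 8 genes were split, with 5 of 9 higher and 3 lower. Against chondrocytes 11 of 16 signalling genes, 12 of 13 sensing genes, 24 of 25 effectors and 4 of 9 partners were higher in macrophages (36.6% of all genes). There 1 of 16 signalling genes and 1 of 9 partners were lower. The share of all genes lower in macrophages is not reported here. In chondrocytes against synoviocytes 4 of 16 signalling genes and 1 of 13 sensing genes were higher (8.31% of all genes). Lower there were 2 of 16 signalling genes, 2 of 13 sensing genes, 12 of 25 effectors and 1 of 9 partners (9.84% of all genes).

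Against chondrocytes, 7 of 8 were higher in macrophages (36.6% of all genes), by edgeR. The log2 fold changes were 9.29 ± 0.50 (SE) for BST2, 7.70 ± 0.56 for MX1, 6.35 ± 0.18 for SAMD9, 4.75 ± 0.36 for IFI6, 3.49 ± 0.16 for ZC3HAV1 and 1.73 ± 0.27 for EIF2AK2. SAMD9L had 27077 counts in the 3 macrophage libraries and 1 count in the 3 chondrocyte libraries, a ratio of 24900 with a 95% counting interval of 4460 to 983000. RSAD2 averaged 35.4 CPM in macrophages and 38.1 CPM in chondrocytes, and the log2 fold change of -0.12 ± 0.28 did not pass (edgeR, adjusted p = 0.711). Its 3 macrophage libraries spanned 18.2 to 49.7 CPM and its chondrocyte libraries 35.7 to 40.5 CPM.

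Chondrocytes and synoviocytes differed in 5 of the 8 genes by edgeR. RSAD2 was higher in chondrocytes (8.31% of all genes were), by 1.56 ± 0.29 on the log2 scale (SE, adjusted p = 0.00381). Lower in chondrocytes (9.84% of all genes were) were ZC3HAV1 (-2.30 ± 0.16, adjusted p = 8.21e-06), SAMD9 (-2.10 ± 0.16, adjusted p = 1.54e-05), MX1 (-1.86 ± 0.51, adjusted p = 0.0285) and SAMD9L, with 684 counts in synoviocytes against 1 (ratio 726 with a counting interval of 130 to 28700). BST2 at -1.81 ± 0.66 (adjusted p = 0.0847), IFI6 at -0.46 and EIF2AK2 at -0.39 did not pass, though BST2 did with the donor as a replicate block (edgeR, -1.76 ± 0.51, adjusted p = 0.0449). The MX1 call was lost when any of 5 of the 6 libraries was left out (AG1, ORC or PC of synoviocytes, AG1 or PC of chondrocytes).

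**Figure D3:**
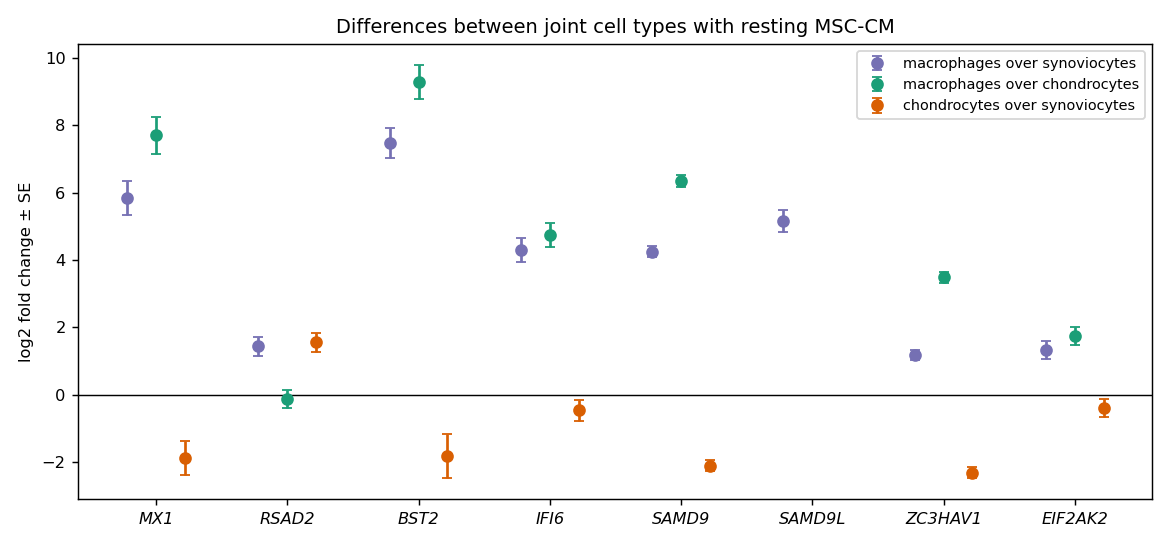
Log2 fold changes ± SE of the 8 genes between joint cell types given resting MSC-CM and cytokines, from 3 libraries per cell type. RSAD2 is the gene near 0 between macrophages and chondrocytes, and the SAMD9L values against chondrocytes are not drawn because those cells held 1 SAMD9L read.

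The order of levels was therefore macrophages, synoviocytes and chondrocytes for MX1 (341 ± 207, 5.81 ± 0.57 and 1.66 ± 0.80 CPM, SD, n = 3) and for SAMD9 (208 ± 18.6, 10.6 ± 0.61 and 2.55 ± 0.59 CPM). For RSAD2 it was chondrocytes (38.5 ± 2.48 CPM) and macrophages (35.8 ± 16.1 CPM), whose difference was within the spread, and then synoviocytes (12.8 ± 0.41 CPM). These means are scaled within each cell type.

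In the single libraries without MSC-CM, which have no replicates, RSAD2 was at 4.17 CPM in synoviocytes with no addition and at 13.5 CPM with the cytokines. In chondrocytes it was at 12.4 and 39.6 CPM and in macrophages at 28.0 and 31.3 CPM. The RSAD2 value with cytokines was the higher one in all 3 cell types. MX1 ran the other way in synoviocytes (9.37 and 4.53 CPM) and chondrocytes (3.43 and 1.83 CPM) and was at 218 and 293 CPM in macrophages, and IFI6 was lower with cytokines in all 3 (51.6 and 38.4, 75.6 and 40.4, and 1324 and 1175 CPM). SAMD9L was also higher with cytokines in synoviocytes (4.96 and 7.97 CPM) and macrophages (267 and 293 CPM). In chondrocytes it had 0 and 3 counts, the latter at the floor, so no direction is read there. BST2 was lower with cytokines in all 3 cell types. No test was made on these libraries.

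**Figure D4:**
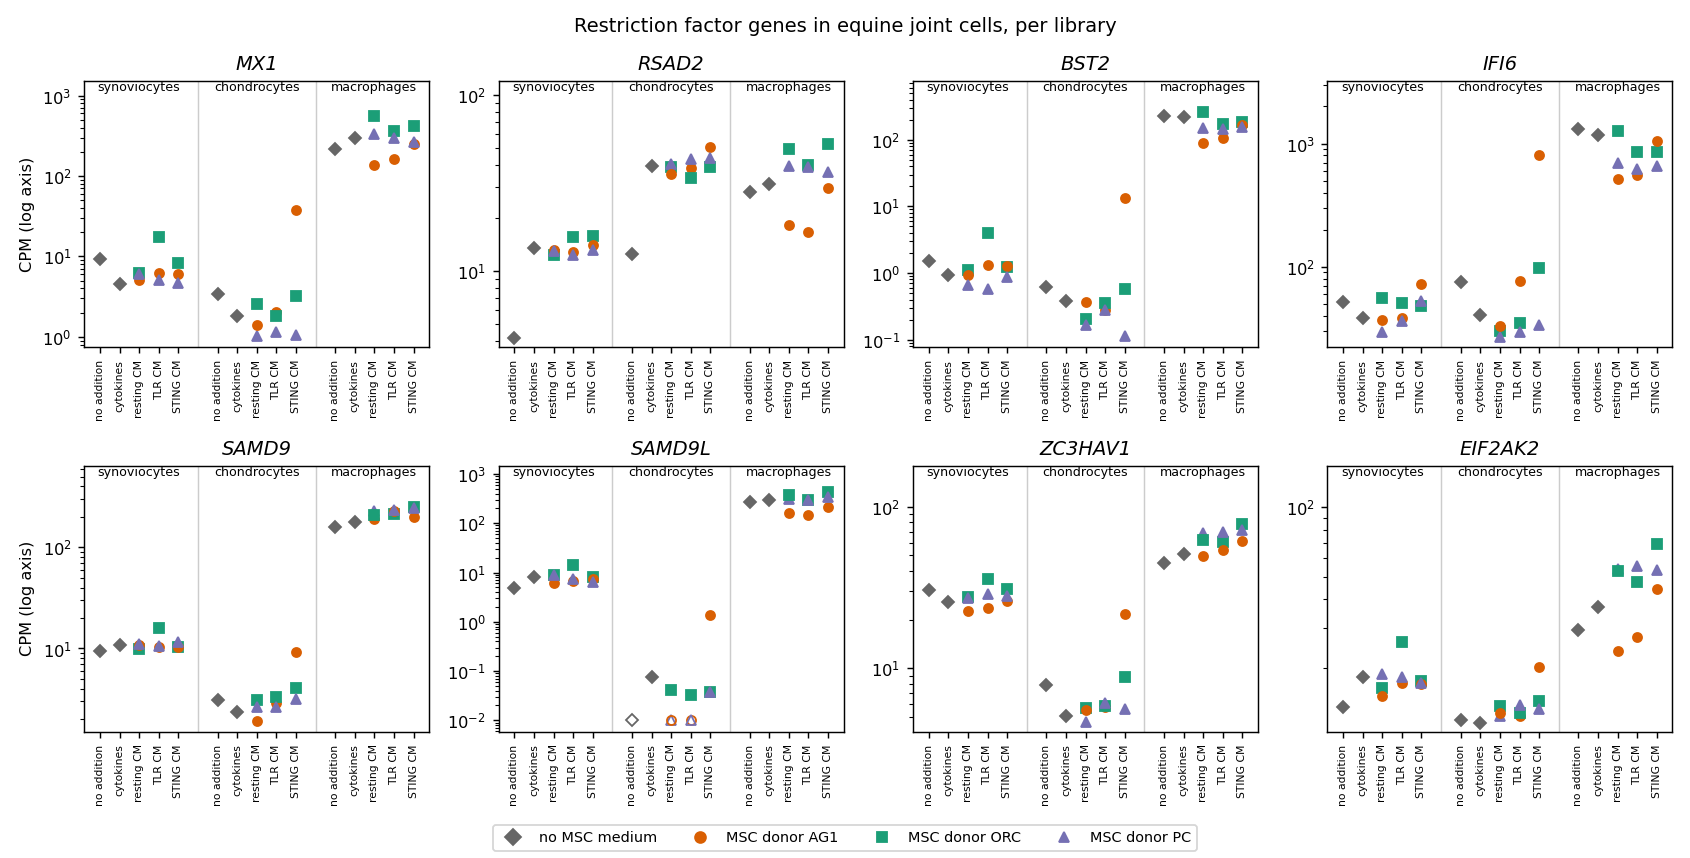
CPM (log axis) of the 8 genes in each of the 33 joint cell libraries, by cell type and condition, with a symbol per MSC donor of the medium and open symbols at 0.01 CPM for counts of 0. Macrophages lie highest for MX1, BST2, SAMD9 and SAMD9L, and the AG1 STING-MSC-CM library stands above the other chondrocyte libraries, at 37.4 CPM for MX1.

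The third set of comparisons asked whether medium of activated MSC changed these genes in each joint cell type. In synoviocytes no gene passed the adjusted p of edgeR (0% of all genes) or the study's thresholds for TLR-MSC-CM (0.487% of all genes), STING-MSC-CM (0.411%) or STING-MSC-CM against TLR-MSC-CM (0.514%). IFI6 was at 36.9, 56.0 and 29.8 CPM with resting medium of donors AG1, ORC and PC, at 38.1, 50.4 and 36.1 CPM with TLR-MSC-CM and at 73.1, 47.7 and 53.2 CPM with STING-MSC-CM. The STING-MSC-CM libraries overlapped the resting ones through donor ORC. Its log2 fold change for STING-MSC-CM was 0.51 ± 0.20 (SE; edgeR, unadjusted p = 0.0241, adjusted p = 0.634) against resting medium and 0.49 ± 0.20 (unadjusted p = 0.0287, adjusted p = 1) against TLR-MSC-CM.

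MX1 in synoviocytes was at 5.15, 6.15 and 6.13 CPM with resting medium, at 6.16, 17.7 and 5.16 CPM with TLR-MSC-CM and at 6.12, 8.27 and 4.65 CPM with STING-MSC-CM, in the order AG1, ORC and PC. The ORC TLR-MSC-CM library was the highest for MX1, BST2 (3.95 CPM), SAMD9 (16.0 CPM), SAMD9L (14.4 CPM), ZC3HAV1 (35.8 CPM) and EIF2AK2 (25.9 CPM). It was above the ORC resting library for 7 of 8 genes, by up to 3.56-fold for BST2, whereas the PC TLR-MSC-CM library was above the PC resting library for 2 of 8. With this library, 8 of 8 log2 fold changes of TLR-MSC-CM against resting medium were above 0, with a median of 0.24, and without it 3 of 8 were, with a median of -0.03. The effectors IFIT3 (2.55) and XAF1 (2.29) were past the study's thresholds with TLR-MSC-CM, and neither was without that library. RSAD2 was at 13.1, 12.3 and 13.01 CPM with resting medium and at 14.0, 15.8 and 13.2 CPM with STING-MSC-CM, the 1 gene of 8 without overlap (7.14% of all genes), at an exact permutation p of 0.1.

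In chondrocytes given STING-MSC-CM of 1 MSC donor, AG1, all 8 genes were above their level with AG1 resting medium, by 1.43-fold for RSAD2 to 35.3-fold for BST2 over the 7 genes other than SAMD9L, which had 0 counts with that resting medium. MX1 was at 1.41, 2.55 and 1.02 CPM with resting medium of AG1, ORC and PC and at 37.4, 3.18 and 1.06 CPM with STING-MSC-CM. IFI6 was at 32.97, 30.4 and 27.02 CPM and then at 808, 98.1 and 33.6 CPM, and BST2 had 14, 5 and 5 counts and then 576, 15 and 3. The AG1 library was 26.5-fold higher than the AG1 resting library for MX1, 24.5-fold for IFI6 and 35.3-fold for BST2, whereas the ORC ratios were 1.25, 3.23 and 2.81 and the PC ratios 1.04, 1.25 and 0.691.

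SAMD9L was all but absent from chondrocytes outside that library, with counts of 0, 1 and 0 with resting medium of AG1, ORC and PC, 0, 1 and 0 with TLR-MSC-CM and 61, 1 and 1 with STING-MSC-CM. The ratio of STING-MSC-CM to resting medium over the group was 61.6 (63 counts against 1, 95% counting interval 10.7 to 2470), and this interval covers counting error only. SAMD9 was at 1.92, 3.08 and 2.66 CPM with resting medium and at 9.15, 4.06 and 3.14 CPM with STING-MSC-CM. ZC3HAV1 was at 5.54, 5.71 and 4.66 CPM and then at 21.7, 8.83 and 5.63 CPM, and EIF2AK2 at 12.8, 13.7 and 12.4 CPM and then at 20.3, 14.4 and 13.2 CPM. RSAD2 moved least in AG1, by 1.43-fold, from 35.7 to 50.9 CPM.

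By edgeR, 0 of 8 genes passed the adjusted p for STING-MSC-CM against resting medium in chondrocytes (0% of all genes). Counting SAMD9L, 4 were past the study's thresholds (0.287% of all genes were higher). These were BST2 at 4.19 ± 1.40 on the log2 scale (SE, unadjusted p = 0.0149), IFI6 at 3.38 ± 1.00 (unadjusted p = 0.00816), MX1 at 3.09 ± 1.10 (unadjusted p = 0.0204) and SAMD9L. SAMD9L entered the test only through the library in which it was high. Its counts and its place among the 4 are therefore a description and not a test, and no p is given. SAMD9 (1.11 ± 0.38, unadjusted p = 0.0176) and ZC3HAV1 (1.19 ± 0.41, unadjusted p = 0.0172) were below the fold threshold. The groups did not overlap for IFI6 and SAMD9, 2 of 8 genes (2.04% of all genes), at an exact permutation p of 0.1. With the AG1 STING-MSC-CM library the 8 genes had a median log2 fold change of 2.14, and the 7 other than SAMD9L had 1.19. Without that library 0 of those 7, the genes then tested, passed, and their median was 0.44. IFI6 then had 1.13 ± 0.49 (unadjusted p = 0.0511), MX1 0.36 ± 0.56 and BST2 0.44 ± 0.73. The count past the study's thresholds was 1 without the PC resting library, 2 without the AG1 resting library and 2 with the donor as a replicate block in DESeq2. The shares of all genes in those fits are not reported here.

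**Figure D5:**
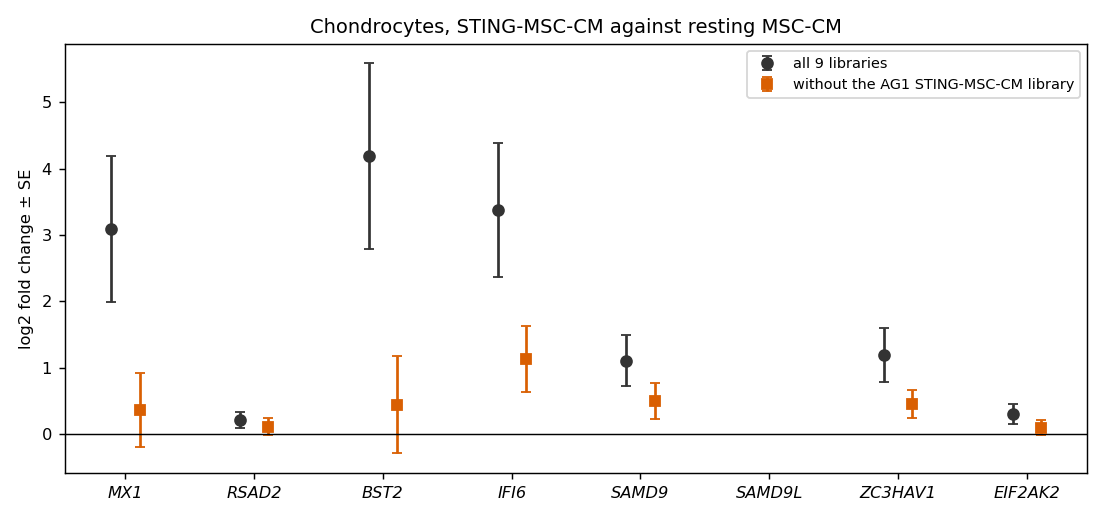
Log2 fold changes ± SE of STING-MSC-CM against resting MSC-CM in chondrocytes with all 9 libraries of the 3 media (black circles) and without the AG1 STING-MSC-CM library (orange squares). MX1 goes from 3.09 to 0.36, and SAMD9L is not drawn because its 3 resting libraries held 1 read.

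Against TLR-MSC-CM, a comparison that shares the STING-MSC-CM libraries, 0 of 8 passed the adjusted p (0% of all genes). The same 4 genes were past the study's thresholds (0.203% of all genes were higher), with BST2 at 3.93, IFI6 at 2.73 and MX1 at 3.09. SAMD9L was among them by its AG1 library alone, which is a description and not a test. None was left without the AG1 STING-MSC-CM or the PC TLR-MSC-CM library (1 by DESeq2 with the donor as a replicate block). The shares of all genes in these fits are not reported here. No gene of the 8 was without overlap there at values above the floor (1.71% of all genes were without overlap). SAMD9L had 61, 1 and 1 counts against 0, 1 and 0. TLR-MSC-CM against resting medium gave 0 of 8 by either rule (0% and 0.308% of all genes), with 5 of 8 log2 fold changes above 0 and ZC3HAV1 the 1 gene higher without overlap (1.75% of all genes).

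In the AG1 STING-MSC-CM library of chondrocytes the summed level of 10 macrophage markers was 38.7 CPM, or 1696 counts, of which CD68 made 1606, against 13.5 to 19.2 CPM in the other 8 libraries with MSC-CM. CD163, MRC1 and SPI1 were at 0 in it, and the sum in macrophages with resting MSC-CM was 9366 to 11180 CPM. From the pathway lists, by the study's thresholds, 1 of 15 signalling genes (USP18, 2.78), 1 of 13 sensing genes (TLR3), 0 of 9 partners and 5 of 24 effectors were higher with STING-MSC-CM than with resting medium. The effectors were DDX60L (4.18), HERC5 (2.51), HERC6 (4.56), IFIT3 (3.03) and LGALS3BP (6.96). Without the AG1 STING-MSC-CM library, USP18 was no longer past the thresholds, TLR3 still was, and LGALS3BP was the 1 of 22 effectors left, at 2.15. Since 24 effectors were tested with that library and 22 without it, some passed the count filter through it alone. Any call of those effectors, here or against TLR-MSC-CM, is a description and not a test. Which effectors these were is not reported here. TLR3 was also past the thresholds with TLR-MSC-CM against resting medium. With 0 counts in the resting libraries, TLR3 passed the filter only through the groups in which it was higher. Its calls against resting medium are therefore a description and not a test. Against TLR-MSC-CM, STING-MSC-CM was past the thresholds for USP18 (2.81) and for 5 effectors, DDX60L, HERC6, IFI44, LGALS3BP and OASL, and for none without the AG1 STING-MSC-CM library. The TLR3 gene had 0 counts in all 3 resting libraries, 3 to 5 with TLR-MSC-CM and 43, 3 and 9 counts with STING-MSC-CM of AG1, ORC and PC. CMPK2 was at 16.3, 8.64 and 7.48 CPM with STING-MSC-CM and at 8.60, 7.78 and 6.63 CPM with resting medium.

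In macrophages, where the genes were already high, no gene had an unadjusted p under 0.05 by edgeR in any of the 3 comparisons. None passed the adjusted p (0% of all genes) or the study's thresholds for TLR-MSC-CM (0.625% of all genes), STING-MSC-CM (0.565%) or STING-MSC-CM against TLR-MSC-CM (0.618%). MX1 was at 139, 553 and 332 CPM with resting medium of AG1, ORC and PC, at 161, 363 and 298 CPM with TLR-MSC-CM and at 253, 416 and 263 CPM with STING-MSC-CM. IFI6 was at 512, 1258 and 689 CPM, 560, 855 and 616 CPM, and 1055, 854 and 658 CPM in the same order. AG1 was the lowest of the 3 donors for MX1, RSAD2, SAMD9L and EIF2AK2 in all 3 media. Over the 9 libraries BST2 ran from 89.6 to 258 CPM, SAMD9 from 189 to 252 CPM, ZC3HAV1 from 49.3 to 78.1 CPM and EIF2AK2 from 23.7 to 69.4 CPM.

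RSAD2 in macrophages was at 18.2, 49.7 and 39.7 CPM with resting medium, at 16.6, 39.9 and 39.2 CPM with TLR-MSC-CM and at 29.8, 53.0 and 36.3 CPM with STING-MSC-CM. Within donors, STING-MSC-CM was above resting medium for 8 of 8 genes in AG1 (1.05-fold to 2.06-fold), 5 of 8 in ORC and 4 of 8 in PC. Over donors the median log2 fold change of the 8 genes was -0.19 for TLR-MSC-CM (3 of 8 above 0) and 0.15 for STING-MSC-CM (7 of 8 above 0). TLR-MSC-CM was above resting medium for 6 of 8 genes in AG1, 1 of 8 in ORC and 3 of 8 in PC. The direction turned with 1 library, since the medians were 0.15 and 0.45 without the ORC resting library and -0.50 and -0.13 without the AG1 resting library, which leaves that donor's other libraries unmatched. With all libraries of 1 donor left out, an alternative added after the data were seen, the medians ran from -0.27 to 0.02 for TLR-MSC-CM and from 0.08 to 0.21 for STING-MSC-CM.

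STING-MSC-CM against TLR-MSC-CM in macrophages gave log2 fold changes of 0.02 to 0.41, all 8 above 0. SAMD9L was at 163, 379 and 315 CPM with resting medium, 150, 290 and 293 CPM with TLR-MSC-CM and 209, 434 and 336 CPM with STING-MSC-CM of AG1, ORC and PC. The STING-MSC-CM value was above the TLR-MSC-CM value in 3 of 3 donors, by 1.15-fold to 1.495-fold. With the MSC donor as a replicate block, SAMD9L was called in this comparison by edgeR, at 0.41 ± 0.0895 (SE, adjusted p = 0.0427, with 336 genes or 2.23% of all called), and by DESeq2 (adjusted p = 0.000766, 750 genes or 4.98%).

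The last comparison asked whether the change with a medium differed between cell types. By edgeR no difference of changes passed the adjusted p for any of the 8 genes (adjusted p = 1 for all, 0% of all genes). By the study's thresholds 4 of 8 genes differed in their STING-MSC-CM change between macrophages and chondrocytes (0.838% of all genes were lower). The differences on the log2 scale, macrophages minus chondrocytes, were -4.23 ± 1.29 (SE) for BST2, -3.32 ± 0.93 for IFI6 and -3.27 ± 1.10 for MX1, and SAMD9L, with 1 read in resting chondrocytes, was the other gene. Chondrocytes minus synoviocytes gave the same 4 genes (0.519% of all genes were higher), at 3.90 ± 1.60 for BST2, 2.87 ± 0.93 for IFI6 and 3.01 ± 1.15 for MX1, again with SAMD9L. None of these passed without the AG1 STING-MSC-CM library of chondrocytes. With the donor as a replicate block, DESeq2 called 1 of 8 differences in each, SAMD9L, by the adjusted p, again by its AG1 library. The share of all genes called in those fits is not reported here. None of the 8 passed the thresholds between macrophages and synoviocytes for TLR-MSC-CM (1.28% of all genes) or STING-MSC-CM (1.12%), or for TLR-MSC-CM between macrophages and chondrocytes (1.42%) or chondrocytes and synoviocytes (0.953%).

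Over the 33 joint cell libraries, centred on each cell type and sharing cells and medium donors, the genes that followed the mean of the 8 most closely among 11589 genes were OAS3 (Pearson r = 0.956), DDX60L (0.948), OAS2 (0.933), HERC6 (0.912) and PARP12 (0.896). Of the 8 genes, MX1 followed their mean most closely (0.956) and RSAD2 least (0.463). Each of the 8 is part of that mean, so its r cannot be set beside those of other genes. Among the others, RSAD2 was nearest to EIF2AK2 (0.698) and SAMD9L (0.662). Over the 31 libraries without the AG1 STING-MSC-CM library of chondrocytes and the ORC TLR-MSC-CM library of synoviocytes, r was 0.936 for OAS3, 0.877 for DDX60L, 0.844 for OAS2, 0.75 for HERC6 and 0.785 for PARP12. MX1 was still the nearest of the 8 (0.838), and SAMD9 was then the farthest (0.385), with RSAD2 at 0.56.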

How the data were processed

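RNA was sequenced from 12 MSC libraries and 33 joint cell libraries. According to the methods and the submitters' processing notes, reads were trimmed with cutadapt 1.12, aligned to EquCab3.0 with STAR and counted per gene with HTSeq 0.11.0, and protein-coding genes were kept. The deposited values are these raw counts, without normalization, with the largest counts, of 7 digits or more, stored to 3 significant digits.

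CPM were computed over TMM-scaled totals within a cell type. Genes whose counts summed to 10 or more across a fit's libraries went into edgeR 4.0.16 (quasi-likelihood test, R 4.3.3), with Benjamini-Hochberg adjustment over all genes tested and a threshold of 0.05. The study's own thresholds were applied as a second rule, and single genes were also given an exact two-sided permutation test. Each cell type was fitted over its 3 replicated conditions, CpG over all 12 MSC libraries, and levels between cell types over the resting MSC-CM libraries. Alternatives were DESeq2 1.42.0, the MSC donor as a replicate block, other size factors, no filter and leaving out each library. Leaving the libraries that stood apart out of the pathway counts and correlations, and all libraries of 1 MSC donor out of the macrophage comparisons, was chosen after seeing the data. Libraries of 1 MSC donor deviated together in MSC (correlations of 0.653 to 0.90), chondrocytes (0.573 to 0.891) and macrophages (0.34 to 0.576), so donors pair there, but not in synoviocytes (-0.378 to 0.361).

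The 8 genes, the pathway and marker lists and the naming rule were chosen with earlier results of these data known. Folds are given for all 8 genes with each agonist in MSC and elsewhere for those with an unadjusted p under 0.05, pathway genes are named where they pass a call rule with an agonist or medium (1 is not reported here) and counted between cell types where given, and the 5 genes most correlated with the mean of the 8 are named. Beyond that rule, genes and folds were given after their values were seen where a level, a non-overlap or a library is described. On counts simulated at a dispersion of 0.02, edgeR recovered 97% of genes changed by 1 on the log2 scale in the TLR3 agonist comparison, where the common dispersion of the real MSC libraries was 0.285, so that recovery does not apply to MSC. Intervals and floors cover counting error only, since reads carried no molecular identifiers. Gene neighbours come from RefSeq, and no sequence is shown.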

Additional observations from a re-analysis of the deposited data

How the results depend on the processing

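Of the counts of the 8 genes called by the adjusted p, 128 of 136 values under other tools, filters or fits stayed within 1.5 times the value reported, and of those past the study's thresholds 133 of 136 did. By the adjusted p, the value reported was 0 in all comparisons except those of levels between cell types with resting medium. A count that stayed at 0 is included among the unchanged values. No log2 fold change of a called gene changed sign. Counts by the adjusted p moved from 0 to 7 (TLR3 agonist) and 8 (STING agonist) in MSC with DESeq2. With the replicate block in DESeq2 they were 5 and 8 there, of which only the former differs from DESeq2 without it. The block moved them to 1 in macrophages for STING-MSC-CM against TLR-MSC-CM with edgeR and with DESeq2, and to 1 for the STING-MSC-CM change in chondrocytes against macrophages and against synoviocytes with DESeq2. Counts past the study's thresholds moved from 4 to 2 (STING-MSC-CM against resting medium in chondrocytes), to 1 (against TLR-MSC-CM) and to 2 (chondrocytes minus synoviocytes) with the block in DESeq2. Each count of 4 includes SAMD9L, which was high in 1 chondrocyte library alone. The cause of the changes with tool and fit was not tested.

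Leaving out 1 library gave 0 to 3 genes by the adjusted p for the TLR3 agonist and, with the donor 92 TLR3 library out of the shared fit, 3 for the STING agonist. By the study's thresholds it gave 5 to 8 for the TLR3 agonist, 0 to 1 for the STING against the TLR3 agonist, and 0 to 4 for STING-MSC-CM in chondrocytes against resting medium, against TLR-MSC-CM and in both differences between cell types. Over all genes, edgeR called 0 for the agonists where DESeq2 called 48 and 93. In macrophages STING-MSC-CM against TLR-MSC-CM gave 0 with edgeR, 31 with DESeq2 and 336 with the block. RSAD2 in untreated MSC and BST2 and SAMD9L in chondrocytes rested on few reads.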
